A study of Mus musculus with 7 samples.

Results

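Albumin (Alb), alpha-fetoprotein (Afp), afamin (Afm) and the vitamin D binding protein (Gc) are members of the albumin gene family of the mouse, and these 4 genes of the 32285 counted were followed through 7 droplet libraries of single liver and tumor cells of the mouse. They were chosen by name, in all 7 libraries. The mice belong to the ABC-Myc model, in which a Cre recombinase driven by the albumin promoter (Alb-Cre) removes a stop sequence and so turns on a human MYC transgene under the CAG promoter (CAG-MYC), on a C57BL/6J background. Littermates that lacked Cre, the MYC transgene or both served as controls. The study names the libraries NEJ634, NEJ687, NEJ709 and NEJ723 as tumors and describes 3 healthy livers, which leaves NEJ638, NEJ654 and NEJ677. GEO's labels give the same model for every library and no group, age, sex or genotype per library, and one label field of NEJ709 carries the name NEJ634. Libraries were therefore described one by one, without a test between groups. The promoter that drives Cre is that of Alb, the first member of the family, so MYC was switched on in cells in which Alb had been active.

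Albumin is the main protein of adult plasma, made by hepatocytes, and carries fatty acids, bilirubin and hormones. Alpha-fetoprotein is its counterpart in fetal plasma, made by yolk sac and fetal liver, and its gene is turned down in the liver after birth while Alb stays on, which is known as the Afp to Alb switch. Return of AFP to the blood is a standard clinical marker of hepatoblastoma. Afamin binds vitamin E and carries Wnt proteins, and Gc carries vitamin D and binds actin released from damaged cells.

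In the GENCODE M21 annotation of GRCm38, all 4 genes lie on chromosome 5, and the build of the deposited matrices is not stated in the sources used here. Gc (ENSMUSG00000035540) runs on the minus strand at chr5:89417522-89457898. Alb (ENSMUSG00000029368) follows on the plus strand at chr5:90460897-90476602, 1002998 bases further on. Afp (ENSMUSG00000054932) lies 14134 bases past the end of Alb, at chr5:90490737-90508907, and Afm (ENSMUSG00000029369) lies at chr5:90518932-90553543, both on the plus strand. The antisense gene Gm43449 overlaps the end of Afp on the minus strand. It reached at most 3.28 CPM (UMIs per 1000000 UMIs) in hepatocyte-lineage-like cells, which is small against Afp in NEJ634, NEJ687 and NEJ709. In NEJ654, however, it had 5 UMIs against 3 of Afp, and in NEJ638 it had 7 against 24, and whether the assignment of reads over that stretch bears on the low values of Afp there was not tested.

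The promoters of the 4 genes are shown because the members descend from a common gene and are transcribed in the same cell type. Each line gives the 250 bases before the RefSeq start site in GRCm38.p6, read 5′ to 3′ along the gene's own strand, and all 4 members matched an entry. Capitals mark the motif CCAAT, a common element of promoters, or its reverse complement ATTGG. The Gc window is chr5:89457899-89458148, minus strand. The Alb window is chr5:90460620-90460869, plus strand. The Afp window is chr5:90490464-90490713, plus strand, and the Afm window is chr5:90518699-90518948, plus strand.
Gc promoter: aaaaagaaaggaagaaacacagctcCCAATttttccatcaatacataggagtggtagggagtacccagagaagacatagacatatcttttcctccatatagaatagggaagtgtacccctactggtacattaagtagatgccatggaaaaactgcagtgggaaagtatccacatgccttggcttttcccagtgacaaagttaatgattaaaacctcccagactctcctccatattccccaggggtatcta
Alb promoter: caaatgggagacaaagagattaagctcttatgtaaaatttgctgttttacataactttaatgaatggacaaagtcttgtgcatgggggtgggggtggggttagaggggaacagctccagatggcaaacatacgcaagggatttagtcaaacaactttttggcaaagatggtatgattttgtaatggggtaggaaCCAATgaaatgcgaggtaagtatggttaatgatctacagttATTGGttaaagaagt
Afp promoter: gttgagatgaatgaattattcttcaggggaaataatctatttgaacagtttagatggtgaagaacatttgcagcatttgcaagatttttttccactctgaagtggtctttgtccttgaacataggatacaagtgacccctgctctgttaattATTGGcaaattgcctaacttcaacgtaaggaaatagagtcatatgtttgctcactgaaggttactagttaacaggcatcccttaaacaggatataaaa
Afm promoter: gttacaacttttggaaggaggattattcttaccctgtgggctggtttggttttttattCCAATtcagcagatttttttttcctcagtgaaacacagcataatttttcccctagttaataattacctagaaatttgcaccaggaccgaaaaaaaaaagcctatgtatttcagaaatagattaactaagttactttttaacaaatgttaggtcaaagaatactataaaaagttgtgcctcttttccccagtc

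The CCAAT motif was present in all 4 windows, against 33.8% of 32851 RefSeq promoter windows of the same length when both strands are counted. In Alb it began 56 bases before the start, and again at 15 bases on the opposite strand. It began 225 bases before the start of Gc and 192 bases before that of Afm. In Afp the only copy was on the opposite strand, at 98 bases. A TATA motif, spelled TATAAA and searched likewise, was found at 7 bases in Afp and at 30 bases in Afm, was not in the windows of Alb and Gc, and occurred in 12.4% of all promoters. The start of the first exon in GENCODE lay 27 bases after the RefSeq start for Alb, 23 bases after it for Afp, at the same base for Gc and 17 bases before it for Afm, so these distances shift with the annotation. A match is a description of letters and not of binding.

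The libraries held 40214395 to 132485391 UMIs and 6716 to 16963 analysed cells each. Cells were placed in 38 clusters without use of the 4 genes, and 21 clusters were named from markers. All 15 hepatocyte lineage markers were raised in each of the 3 clusters named hepatocyte-lineage-like. Cluster 0 held nearly all such cells of NEJ634 (5377 of 5421), NEJ687 (232 of 233) and NEJ709 (41 of 41), while cluster 35 held nearly all of NEJ638 (314 of 317), NEJ654 (323 of 331) and NEJ677 (145 of 147). Cluster 0 was led by H19, Fabp6 and Slc51b, and cluster 35 by Serpina3k, Cyp2f2 and Cyp2c29. The same class name therefore stands for different cells in the libraries compared below. NEJ723 had only 12 cells in this class, below the minimum of 20, and its values for the class are given apart. Levels are UMIs summed over cells in CPM, with exact 95% Poisson intervals, and shares carry exact Clopper-Pearson intervals. These intervals cover counting error only, not the spread between animals. Each kit counts the 3′ end of a transcript once, so levels of different genes were compared without a correction for length.

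Alb was the most abundant transcript of all in hepatocyte-lineage-like cells of NEJ638, NEJ654 and NEJ677, and was far lower in NEJ634, NEJ687 and NEJ709. Its level was 41206 CPM in NEJ638 (40961 to 41453), 69727 CPM in NEJ654 (69308 to 70147) and 67168 CPM in NEJ677 (66699 to 67640). It was 4264 CPM in NEJ634 (4238 to 4290), 3165 CPM in NEJ687 (3112 to 3218) and 3644 CPM in NEJ709 (3495 to 3798). No interval of the first 3 libraries came near one of the last 3, and intervals of neighbouring libraries within each set did not overlap either. Alb still ranked 16th of all genes in NEJ634, 39th in NEJ709 and 54th in NEJ687, so it remained a highly transcribed gene where it was lowest. From the lowest library, NEJ687, to the highest, NEJ654, the level of Alb spanned 22.0-fold (21.6 to 22.4). Which libraries stand at the ends depends on the processing. Classing cells by marker share gave 2237 CPM in NEJ709, and removing 2 times the doublet rate gave 95382 CPM in NEJ677. In the 12 cells of NEJ723 Alb was 4278 CPM (3997 to 4574).

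Afp was high where Alb was low, with by far the widest span of the 4 genes. Its level was 2443 CPM in NEJ634 (2423 to 2463), 1556 CPM in NEJ687 (1519 to 1594) and 1581 CPM in NEJ709 (1483 to 1683). It was 9.19 CPM in NEJ638 (5.89 to 13.7, from 24 UMIs), 1.97 CPM in NEJ654 (0.406 to 5.76, from 3 UMIs) and 4.29 CPM in NEJ677 (1.39 to 10.0, from 5 UMIs). NEJ687 and NEJ709 could not be told apart, NEJ634 stood above both, and among the low values NEJ677 overlapped both NEJ638 and NEJ654. With barcodes that are also cells of other libraries left out, Afp in NEJ709 was 1101 CPM, below its interval. Its place beside NEJ687 thus depends on the processing. The ratio of NEJ634 to NEJ654 was 1240 (424 to 6013), with 3 UMIs in the latter, where a mean over cells gave 4.36 CPM in place of 1.97 CPM. In NEJ677 a mean over cells gave 16.4 CPM in place of 4.29 CPM, outside its interval, so the order of the low values is not firm. Afp ranked 74th, 126th and 122nd among all genes in NEJ634, NEJ687 and NEJ709, against 7546th, 10748th and 8859th in NEJ638, NEJ654 and NEJ677. The 12 cells of NEJ723 held 1481 CPM (1317 to 1659).

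**Figure D1:**
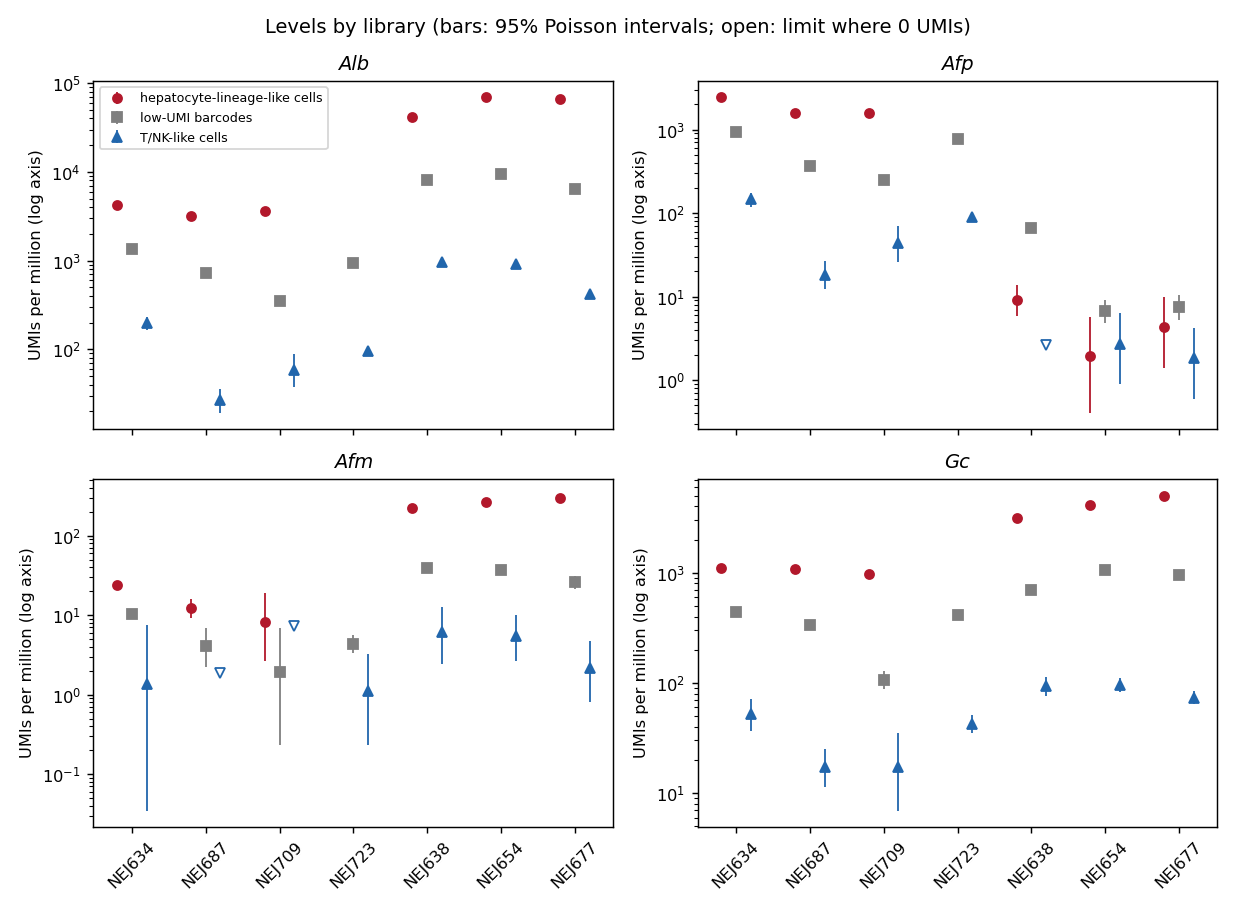
Levels of Alb, Afp, Afm and Gc in CPM, on a log axis, for each library, in hepatocyte-lineage-like cells, low-UMI barcodes and T/NK-like cells, with exact 95% Poisson intervals and an open symbol at the level of 3 UMIs where no UMI was found (NEJ723 has no point for the first, having under 20 cells). In hepatocyte-lineage-like cells Alb, Afm and Gc sit higher in NEJ638, NEJ654 and NEJ677, while Afp lies between 1.97 and 9.19 CPM there and between 1556 and 2443 CPM in NEJ634, NEJ687 and NEJ709.

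The balance of the fetal and the adult carrier was read as the share of Afp in the summed UMIs of Afp and Alb. In hepatocyte-lineage-like cells this share was 36.4% in NEJ634 (36.2 to 36.7), 33.0% in NEJ687 (32.3 to 33.6) and 30.3% in NEJ709 (28.7 to 31.9). For NEJ709 this is 43.4 Afp per 100 Alb UMIs, which became 71.0 when cells were classed by their share of hepatocyte markers. Its lowest value under the other settings tried was 35.5. The share was 0.0223% in NEJ638 (0.0143 to 0.0332), 0.00283% in NEJ654 (0.000583 to 0.00826) and 0.00638% in NEJ677 (0.00207 to 0.0149). Alb was thus the more abundant of the 2 transcripts in this class in all 6 libraries, and the 3 high shares came from a high Afp together with a low Alb. The share in the 12 cells of NEJ723 was 25.7% (23.2 to 28.3). When cells of NEJ723 were instead classed by the share of hepatocyte markers among their UMIs, 294 cells gave 4420 CPM of Alb and 3310 CPM of Afp.

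Gc was higher in the same 3 libraries as Alb, but over a much narrower span. Its level was 3169 CPM in NEJ638 (3101 to 3238), 4099 CPM in NEJ654 (3998 to 4202) and 4966 CPM in NEJ677 (4839 to 5095). It was 1096 CPM in NEJ634 (1082 to 1109), 1081 CPM in NEJ687 (1050 to 1112) and 971 CPM in NEJ709 (894 to 1052). NEJ634 and NEJ687 overlapped, NEJ687 and NEJ709 overlapped narrowly, and the libraries above 3000 CPM were all distinct. The ratio of NEJ677 to NEJ709 was 5.12 (4.70 to 5.57). Since the span of Alb was wider, Gc per 100 Alb UMIs came to 25.7, 34.2 and 26.6 in NEJ634, NEJ687 and NEJ709, against 7.69, 5.88 and 7.39 in NEJ638, NEJ654 and NEJ677. The 12 cells of NEJ723 had the most Gc of the libraries named as tumors, at 1995 CPM (1804 to 2200).

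Afm followed Alb closely. It was the least abundant member in NEJ634, NEJ687 and NEJ709, but lay above Afp in NEJ638, NEJ654 and NEJ677. Its level was 225 CPM in NEJ638 (207 to 244), 267 CPM in NEJ654 (242 to 295) and 295 CPM in NEJ677 (265 to 328). It was 24.1 CPM in NEJ634 (22.2 to 26.1), 12.3 CPM in NEJ687 (9.27 to 16.1) and 8.13 CPM in NEJ709 (2.64 to 19, from 5 UMIs). The higher libraries overlapped with their neighbours, and so did NEJ687 and NEJ709, while NEJ634 lay above both. The ratio of NEJ677 to NEJ709 was 36.3 (15.4 to 112). Per 100 Alb UMIs, Afm stayed between 0.223 and 0.583 in all 7 libraries, so that Afm, the next gene after Afp on the chromosome, kept nearer to Alb than to its neighbour.

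Among 2184 genes that reached 100 CPM in this class in at least 1 library, 374 genes (17.1%) spanned 10-fold or more between the highest and the lowest library. Of the 4 members, 3 did so. Afp had the 17th widest span, Afm the 166th and Alb the 215th, while Gc was 740th with a span of 5.12. The median span over all 2184 genes was 3.59.

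Levels in called cells were set beside those in low-UMI barcodes, ranked 45000 to 90000 by their total, which hold mostly RNA from outside cells. In NEJ634 these barcodes held 210 to 952 UMIs each, against at most 460 elsewhere, and some may be cells that were not tested. A gene was counted as raised where the level in hepatocyte-lineage-like cells was at least 2 times that in the low-UMI barcodes of the same library and the intervals did not meet. By this rule 10.7% of genes were raised in NEJ634, 21.4% in NEJ687, 33.8% in NEJ709, 69.8% in NEJ638, and 19% and 21% in NEJ654 and NEJ677. The low-UMI barcodes of NEJ638 were 56.5% mitochondrial, against 3.57% to 12.7% in the other libraries, and its high share was read with that in view. Alb and Gc were raised in all 6 libraries, Alb by 3.15 to 10.5 times and Gc by 2.51 to 9.13 times. Afp was raised in NEJ634, NEJ687 and NEJ709, by 2.65, 4.25 and 6.36 times. In NEJ638, NEJ654 and NEJ677 the level of Afp in the class was 0.137, 0.293 and 0.572 times that in low-UMI barcodes, so it was not raised there. With barcodes that are cells of other libraries left out, the low-UMI level was 6.53 CPM in NEJ638 (4.44 to 9.27), 3.01 CPM in NEJ654 and 3.02 CPM in NEJ677, so that the class of NEJ638, at 9.19 CPM, and that of NEJ677, at 4.29 CPM, no longer lay below it, with overlapping intervals. Afm was raised in 5 of 6 libraries, and in NEJ709 its fold of 4.2 rested on 5 UMIs with intervals that met.

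Low-UMI barcodes of this range split the libraries in the same way as hepatocyte-lineage-like cells did. The share of Afp in Afp plus Alb was 40.5% for NEJ634, 33.3% for NEJ687, 41.3% for NEJ709 and 44.8% for NEJ723. For NEJ638 it was 0.823%, for NEJ654 0.0714% and for NEJ677 0.117%. The value of NEJ638 was 0.0780% (0.0530 to 0.111) once barcodes that are cells of other libraries were left out. Alb in the same low-UMI barcodes was 6410 to 9418 CPM in NEJ638, NEJ654 and NEJ677 and 353 to 1354 CPM in the other 4 libraries. Barcodes of 1 to 10 UMIs kept the split, with Afp at 20.3% to 41.5% in NEJ634, NEJ687, NEJ709 and NEJ723. In NEJ638, NEJ654 and NEJ677 it was 0.348% to 1.83%. Barcodes of 11 to 100 UMIs did not keep the split. There the share of Afp was 9.45% in NEJ634 (7.55 to 11.7) and 18.6% in NEJ687, while NEJ638 had 13% (11.8 to 14.4). It was 0.743% in NEJ654 and 1.33% in NEJ677, and NEJ709 (38.5%) and NEJ723 (41.5%) had intervals that held their low-UMI values.

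**Figure D2:**
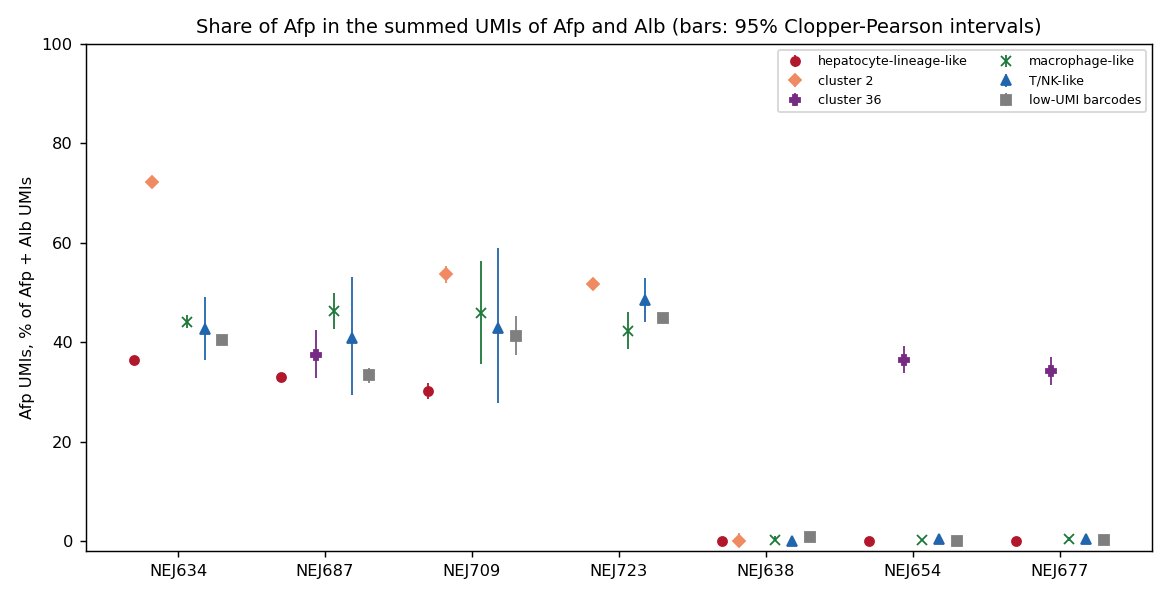
Share of Afp in the summed UMIs of Afp and Alb, in percent, for each library and for hepatocyte-lineage-like, macrophage-like and T/NK-like cells, low-UMI barcodes and the unnamed clusters 2 and 36 described further on, with exact 95% Clopper-Pearson intervals. All points of NEJ634, NEJ687, NEJ709 and NEJ723 lie between 30.3% and 72.2%, and all points of NEJ638, NEJ654 and NEJ677 except cluster 36 lie below 1%. The point of cluster 2 in NEJ709 comes from 46 cells, 41 of which have barcodes of cells of NEJ723.

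T/NK-like cells, which should not express any of the 4 genes, held them at low levels. Alb in these cells was 965 CPM in NEJ638, 904 CPM in NEJ654, 421 CPM in NEJ677, 196 CPM in NEJ634, 96.0 CPM in NEJ723, 58.9 CPM in NEJ709 and 26.6 CPM in NEJ687. The share of Afp in Afp plus Alb was 40.8% in NEJ687, 42.6% in NEJ634, 42.9% in NEJ709 and 48.5% in NEJ723. In NEJ638, NEJ654 and NEJ677 it was at most 0.431%. Macrophage-like cells gave 42.2% to 46.3% and at most 0.303% in the same sets of libraries. These levels are a background that any cell of the same library may carry. Over all lymphoid and endothelial cells, Alb reached 0.0542 to 0.212 times its low-UMI level, and markers that such cells should lack reached 0.0607 to 0.134 times theirs. NEJ709 gave the highest ratio for both Alb (0.212) and Afp (0.210), and NEJ687 the lowest for Alb.

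By the total of a barcode, Afp did not always follow Alb, above all in NEJ638. Its level was 712 CPM in barcodes of 11 to 100 UMIs, 6.93 CPM from there to 500 UMIs and 0.204 CPM in barcodes of over 2000 and up to 5000 UMIs. Alb in the same ranges was 4750, 7609 and 1279 CPM. In NEJ634 barcodes of 11 to 100 UMIs were instead poor in Afp, at 203 CPM. Every other range held at least 736 CPM, the value for 1 to 10 UMIs. From 100 to 500 UMIs Afp was 1100 CPM. Alb was 1885 CPM for 1 to 10 UMIs, 1941 CPM for 11 to 100 UMIs and 1790 CPM from there to 500 UMIs. Of the 739 Afp UMIs of NEJ638, 447 (60.5%) were in barcodes that are cells of NEJ634, although those barcodes held 1.51% of all UMIs and 0.80% of the Alb UMIs of NEJ638. In the other direction, barcodes that are cells of NEJ638 held 2981 Afp UMIs of NEJ634, 2.09% of its Afp in 0.532% of its UMIs. Outside the cells of the library itself this excess of Afp was not seen in NEJ634, where such barcodes held 0.194% of the Afp in 0.729% of the UMIs, whereas in NEJ638 it was, at 62.4% of the Afp in 2.19% of the UMIs. Alb ran the other way. Outside the library's own cells, these barcodes held 2.51% of the Alb in NEJ634 and 1.05% in NEJ638. With the cells of other libraries left out, Afp in low-UMI barcodes of NEJ638 was 6.53 CPM in place of 67.1 CPM, and Alb was 8359 CPM in place of 8085 CPM.

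The few Afp UMIs of NEJ654 and NEJ677 were also tied to shared barcodes. In NEJ654, 442 of 593 Afp UMIs (74.5%) were in barcodes that are cells of NEJ677, which held 2.75% of its UMIs and 2.5% of its Alb. Cells of NEJ687 held 410 of the 593 (69.1%). In NEJ677, 395 of 542 (72.9%) were in cells of NEJ654 and 355 (65.5%) in cells of NEJ687. A barcode can be a cell of several libraries, so these shares overlap. Outside the cells of the library itself, cells of NEJ687 held 42.7% of 131 Afp UMIs in NEJ654 and 41.5% of 123 in NEJ677. There, cells of NEJ677 held 0% in NEJ654, and cells of NEJ654 held 0.813% in NEJ677. In NEJ687 the excess outside its own cells was of Alb. Cells of NEJ654 held 5.09% of that Alb in 1.28% of the UMIs, and cells of NEJ677 4.59% in 1.54%. NEJ654 and NEJ677 had 191 cell barcodes in common where 14.4 were expected from independent draws, and had 115 and 105 in common with NEJ687 where 15.1 and 15.3 were expected. NEJ709 and NEJ723 also shared more than expected, 115 against 52.3, and cells of NEJ709 held 14.9% of the Afp UMIs of NEJ723 in 4.83% of its UMIs, with 43 of the 347 cells of cluster 2 among them. Cluster 36, unnamed, consisted almost wholly of shared barcodes, at 98.7% to 99.3% of its cells in these 3 libraries, and Afp in it was 773 CPM in NEJ654, 716 CPM in NEJ677 and 705 CPM in NEJ687. Alb there was 1349, 1381 and 1174 CPM, and the share of Afp was 34.2% to 37.5%. In analysed cells whose barcodes were not shared, Afp was 0.935 CPM in NEJ654 and 0.899 CPM in NEJ677. Which library these cells came from cannot be told apart.

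**Figure D3:**
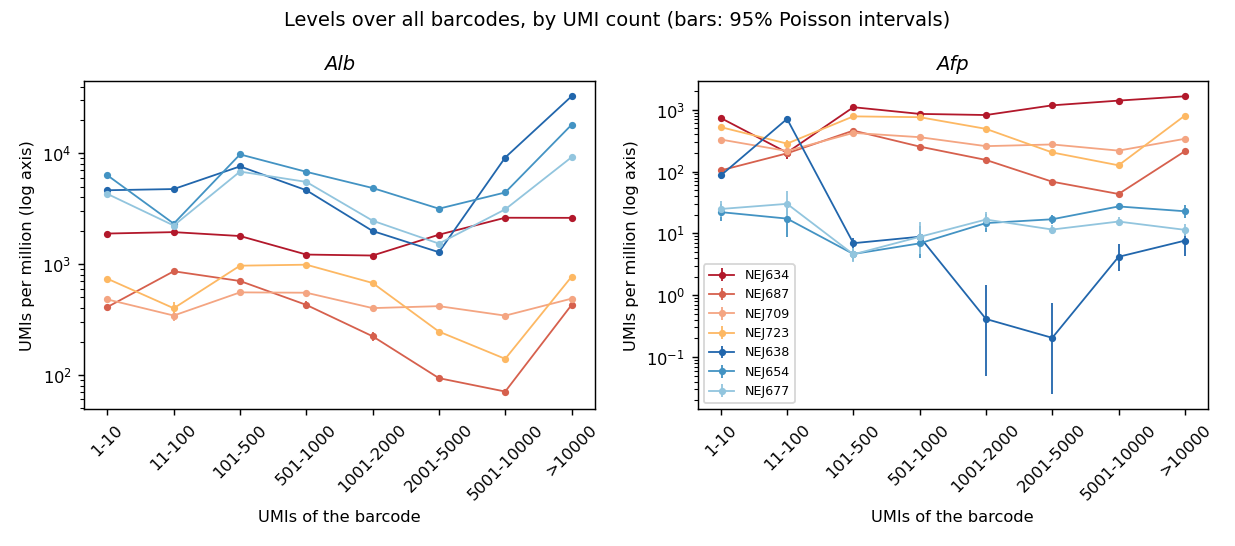
Levels of Alb and Afp in CPM, on log axes, over all barcodes by their total UMIs, 1 line per library, with exact 95% Poisson intervals. Afp in NEJ638 peaks at 712 CPM in barcodes of 11 to 100 UMIs, while its Alb has no such peak.

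The cells that supplied the family's transcripts differed between libraries. Hepatocyte-lineage-like cells held 79.0% of the Alb and 73.9% of the Afp UMIs of analysed cells in NEJ634, and 87.1% and 83.1% in NEJ687. They held 90.4% of the Alb UMIs in NEJ638. In NEJ723 most came from cluster 2, an unnamed cluster led over all libraries by Cldn7, Clps, Ctrb1 and Epcam (Clps and Ctrb1 through 24 cells of NEJ638, while in NEJ723 they were 3.79 and 0.0632 CPM against 421 CPM of Cldn7), which held 78.2% of the Alb, 83.2% of the Afp, 71.1% of the Afm and 79.8% of the Gc UMIs in 2.79% of the cells. In NEJ709 the large unnamed clusters 25 and 26 held 31.4% and 47.3% of the Alb UMIs. Alb in these was 389 and 411 CPM and Afp at most 264 CPM, close to the 353 CPM of Alb and 249 CPM of Afp in the low-UMI barcodes, so these clusters carried the family at the level of low-UMI barcodes, above the 58.9 and 44.1 CPM of T/NK-like cells.

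Cluster 2, taken as a whole, had a larger share of Afp than hepatocyte-lineage-like cells. In its 297 cells of NEJ634, Afp was 4288 CPM (4168 to 4410) and Alb 1653 CPM (1579 to 1730), a share of Afp of 72.2% (71.1 to 73.2). In its 347 cells of NEJ723, Afp was 2019 CPM (1996 to 2041) and Alb 1881 CPM (1860 to 1903), a share of 51.8% (51.4 to 52.2). In NEJ634 this came from part of the cells, since Alb exceeded Afp in the 2 lower of 3 sets of cells ordered by Afp, as given below. Summed over cells Afp exceeded Alb in both, which it did not in hepatocyte-lineage-like cells of any library. Gc was the same within its interval, at 926 CPM (871 to 984) and 927 CPM (912 to 942). Afm was 8.77 CPM (4.21 to 16.1) and 6.82 CPM (5.60 to 8.24). The 46 cells of NEJ709 in this cluster shared 41 barcodes with NEJ723, so which library they came from cannot be told apart, and no value is given for them. Of the 347 cells of NEJ723, 43 likewise have barcodes of cells of NEJ709, and these remain in the values of NEJ723 given here. The 24 cells of NEJ638 there carried pancreatic genes and 0 Afp UMIs (0 to 36.1 CPM). Of genes that mark biliary and fetal epithelium, Epcam in cluster 2 was 170 CPM in NEJ634 and 207 CPM in NEJ723, against 6.74 CPM in hepatocyte-lineage-like cells of NEJ634.

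A smaller unnamed cluster, 23, held 158 cells of NEJ634 only and was led by the acute-phase genes Saa2 and Saa1. Alb there was 4363 CPM (4220 to 4509), close to the 4264 CPM of the hepatocyte-lineage-like cells. Afp was 1189 CPM (1116 to 1267) and Gc 1527 CPM (1443 to 1614). The share of Afp, 21.4% (20.2 to 22.6), was the lowest of the clusters of NEJ634 described here, and its Gc the highest.

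Single cells were asked whether Afp and Alb transcripts occur together or in separate cells. Every cell was thinned to 500 UMIs so that cells of different depth could be compared, since median totals ran from 2200 UMIs in NEJ654 to 16224 UMIs in NEJ687. In hepatocyte-lineage-like cells of NEJ634, 76.0% held Alb, 57.4% held Afp and 46.9% held both, where the product of the 2 shares was 43.6%. In NEJ687 the shares were 65.2% for Alb, 43.8% for Afp and 33.0% for both (27.0 to 39.5), with a product of 28.6%. In the 41 cells of NEJ709 they were 75.6%, 36.6% and 26.8%, with a product of 27.7%. These shares depend on the number of UMIs kept: at 1000 UMIs both were found in 69.5% of the cells of NEJ634, 56.9% of those of NEJ687 and 58.5% of those of NEJ709. Most cells with an Afp UMI therefore also had an Alb UMI. The product lay below the interval of the share with both in NEJ634 (45.6 to 48.2) and inside that interval in NEJ687 and NEJ709. In NEJ638, NEJ654 and NEJ677, Alb was found in 100%, 99.7% and 98.6% of cells and Afp in 0.315%, 0.302% and 0.680%. Without thinning, Alb was in 98.3% and Afp in 92.8% of the cells of NEJ634, and both in 91.7%.

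In cluster 2 of NEJ723 the thinned shares were 52.4% for Alb, 51.6% for Afp and 31.7% for both, with a product of 27.1%. In cluster 2 of NEJ634 they were 48.8%, 36.4% and 19.9%, with a product of 17.8%. T/NK-like cells set the background for such shares. In NEJ634, 9.62% of them held Alb and 8.97% Afp, and in NEJ723, 4.28% and 3.89%. Alb was in 39.7% of T/NK-like cells of NEJ638 and 41.2% of NEJ654, so that one Alb UMI in a cell of those libraries tells little about that cell.

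The Afp share of single cells was broad, with most cells holding both transcripts. Counting noise adds to this breadth where a cell has few UMIs of the pair, and its part was not measured. Median totals were 2960 UMIs in hepatocyte-lineage-like cells of NEJ634 and 36692 UMIs in cluster 2 of NEJ723. The spreads of the pools were thus not read at equal depth. Among 3773 hepatocyte-lineage-like cells of NEJ634 with at least 10 UMIs of both genes together, the median share of Afp was 36%, with a 10th percentile of 16.7% and a 90th of 57.1%. In NEJ687 the median of 172 cells was 32.0%, with percentiles of 19.6% and 51.3%. In NEJ709 the median of 27 cells was 31.8%, with percentiles of 18.5% and 52.7%. Afp was the more abundant of the pair in 16.5%, 12.2% and 11.1% of these cells, and no cell held Afp alone. In NEJ638, NEJ654 and NEJ677, 93.7%, 99.3% and 97.8% of cells held Alb alone.

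Among cells with at least 10 such UMIs, those of cluster 2 were spread further toward Afp. In NEJ723 the median share of 302 cells was 52.8%, with percentiles of 33.4% and 71.2%, and 55.0% of cells had more Afp than Alb. In NEJ634 the median of 112 cells was 62.0%, with percentiles of 17.0% and 93.6%. Only these 112 of its 297 cells held 10 such UMIs, and cells rich in Afp reach that limit more readily. The median therefore does not stand for all cells of the cluster. The spread in NEJ634 was the widest of the pools described, from cells with mostly Alb to cells with mostly Afp.

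**Figure D4:**
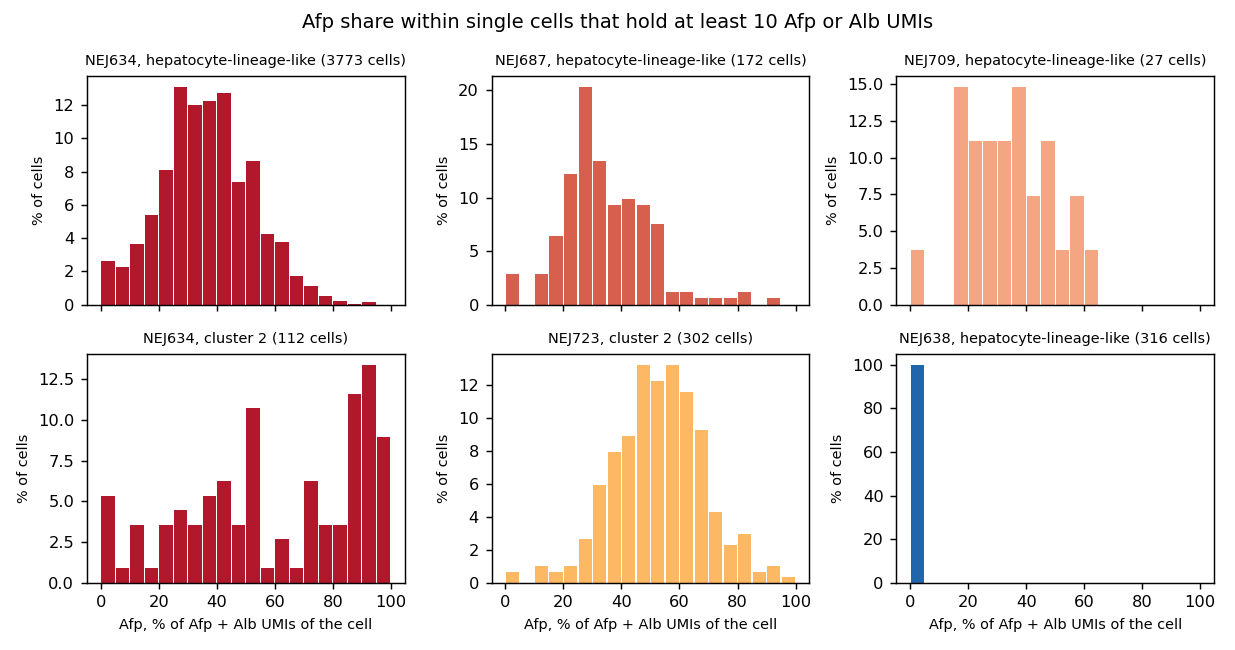
Share of Afp in the summed Afp and Alb UMIs of single cells with at least 10 such UMIs, in percent; the vertical axis is the percentage of cells, and panels show hepatocyte-lineage-like cells of NEJ634, NEJ687, NEJ709 and NEJ638 and cluster 2 of NEJ634 and NEJ723. Shares form a broad peak around 36% in NEJ634, lie further right in cluster 2 of NEJ723, spread over the whole axis in cluster 2 of NEJ634 and fall in the lowest bar in NEJ638.

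The other members were then read across cells ranked by Afp. The UMIs of each cell were split at random in equal parts: Afp per UMI in one part ordered the cells into 3 sets of nearly equal number, and levels were measured in the other part, so that counting noise in the order does not enter them. In hepatocyte-lineage-like cells of NEJ634, Afp was 834, 1805 and 4459 CPM from the lowest to the highest set. Alb was higher in each next set, at 2725 CPM (2672 to 2779), 3692 CPM (3633 to 3751) and 6121 CPM (6047 to 6195). Gc differed less, at 931 CPM (900 to 962), 1127 CPM (1094 to 1160) and 1229 CPM (1196 to 1262). Afm was 22.3, 25.5 and 26.7 CPM, with overlapping intervals. Median totals were 2763, 3082 and 3057 UMIs, so depth differed little between the sets.

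NEJ687 showed the same order. Alb was 1973 CPM (1845 to 2108), 2375 CPM (2278 to 2474) and 4862 CPM (4708 to 5019) where Afp was 430, 1023 and 2852 CPM. Gc was 990, 1013 and 1226 CPM, and only the last stood clear of the others. Here the set of lowest Afp had a median of 3988 UMIs against 23924 and 14006 in the others, but with cells over 1000 UMIs and at most 10% mitochondrial, where the medians were 15361, 26494 and 19760 UMIs, Alb was 1923, 2559 and 5047 CPM. With 4 sets in place of 3, the lowest pair of NEJ687 did not keep the order, at 2205 and 2029 CPM. In cluster 2 of NEJ723, Alb was 761 CPM (725 to 799), 1383 CPM (1340 to 1427) and 3264 CPM (3198 to 3330), while Gc was 713, 918 and 1075 CPM. Median totals there were 27744, 41318 and 42447 UMIs. From the lowest to the highest set Alb differed 2.25-fold in NEJ634, 2.46-fold in NEJ687 and 4.29-fold in cluster 2 of NEJ723, against 1.32, 1.24 and 1.51 for Gc. The difference was not particular to Alb. In the same order it was 2.0, 2.3 and 2.4 for Ttr and 2.0, 1.5 and 5.1 for Apoa1, both plasma protein genes. Within these pools cells with more Afp thus also held more Alb, while the libraries with the highest Alb, NEJ638, NEJ654 and NEJ677, had the lowest Afp.

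Cluster 2 of NEJ634 did not follow this pattern. Afp was 282, 504 and 10310 CPM in its 3 sets, and Alb was 1439 CPM (1250 to 1647), 1247 CPM (1098 to 1409) and 1965 CPM (1784 to 2160). Gc was 833, 1041 and 769 CPM. Zbtb20, a repressor of Afp in postnatal liver, was 172, 386 and 45.5 CPM there, and Dlk1, a marker of fetal hepatoblasts, was 20.7 CPM (4.26 to 60.3), 0 CPM (0 to 18) and 227 CPM (169 to 300). Igf2 (881, 836 and 864 CPM) and H19 (2106, 1970 and 2061 CPM) had intervals that met in all 3 sets. Apoa1, the main protein of high-density lipoprotein, was 654, 548 and 2334 CPM. In cluster 2 of NEJ723 Zbtb20 did not have this order, at 59.5, 52.4 and 74.2 CPM.

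Other genes also differed along the Afp order in hepatocyte-lineage-like cells. Ttr, the plasma carrier of thyroid hormone, was 2195, 3136 and 4358 CPM in NEJ634. Dlk1 was 9.80, 18.4 and 51.4 CPM there, and 2.25, 29.2 and 71.5 CPM in NEJ687. Cyp2e1, an adult pericentral enzyme, ran the other way, at 45.5, 29.0 and 18.5 CPM in NEJ634. Zbtb20 was 46.6 CPM (39.8 to 54.1), 39.8 CPM (33.9 to 46.4) and 34.9 CPM (29.6 to 41.0), with intervals that all met. Igf2, the fetal growth factor, was 2149, 2820 and 2971 CPM. H19, also a fetal gene, did not rise with Afp. It was 5770, 6005 and 5673 CPM in NEJ634 and 9294, 9690 and 8106 CPM in NEJ687. In cluster 2 of NEJ723 H19 was 159, 78.9 and 71.5 CPM, where Igf2 was 710, 1304 and 1942 CPM.

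**Figure D5:**
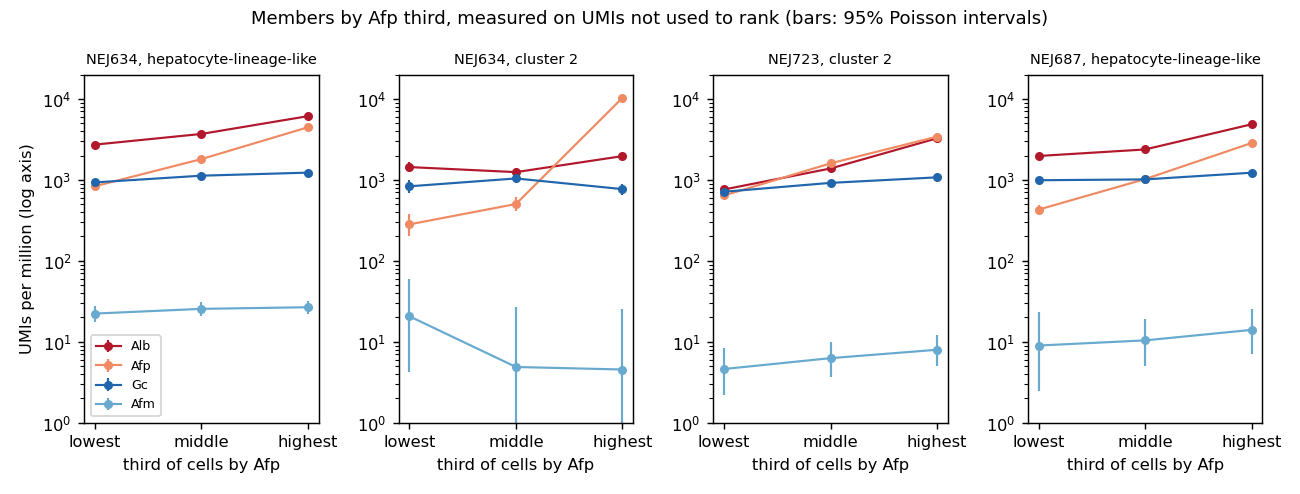
Levels of Alb, Afp, Afm and Gc in CPM, on a log axis, in cells divided into 3 sets of nearly equal number by their Afp, measured on UMIs that were not used to order the cells, with exact 95% Poisson intervals and 1 panel per pool. Alb goes from 2725 to 6121 CPM in hepatocyte-lineage-like cells of NEJ634 and from 761 to 3264 CPM in cluster 2 of NEJ723.

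The genes most like each member were sought over 75 pools of library and named cell class with at least 20 cells. The measure was Pearson's correlation of log2(CPM + 1) among 5908 genes. Unnamed clusters, which held most of the Afp UMIs of analysed cells in NEJ709, NEJ723, NEJ654 and NEJ677, were not among these pools. The pools share libraries and free RNA, so these values are descriptions. Alb was most like Serpina1b (0.94), Fabp1 (0.93) and Serpina1c (0.93), which are products of adult hepatocytes. Gc was most like Ahsg (0.97), Ttr (0.96) and Apoa1 (0.96), all plasma proteins. Afm was most like Lect2 (0.89), Cyp4a14 (0.89) and Serpina3m (0.88). Afp was most like Igf2 (0.94), Bex1 (0.90) and Bex2 (0.87). Among the members, Alb and Gc gave 0.91, Afm and Gc 0.82 and Alb and Afm 0.81. Afp gave -0.18 with Alb, -0.07 with Afm and 0.17 with Gc, so it was the member whose pattern differed from the rest.

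Factors known to act at the locus were read in the same hepatocyte-lineage-like cells. Of 22 such genes, 10 reached 100 CPM, and 2 of them, Zbtb20 and Dbp, spanned 10-fold or more, near the 17.1% of all genes. Zbtb20 stood at 41.7, 13 and 27.6 CPM in NEJ634, NEJ687 and NEJ709, against 271, 251 and 411 CPM in NEJ638, NEJ654 and NEJ677. Its highest and lowest libraries, NEJ677 and NEJ687, differed 31.5-fold (23.9 to 42.3), and it was high in the same 3 libraries as Alb. In NEJ687 it was below its low-UMI level of 18.9 CPM and in NEJ634 close to that of 38.7 CPM, so the low end of this span did not stand above background. Zhx2, the other known postnatal repressor of Afp, was 0.914 to 2.58 CPM in the first set of libraries, with 1 UMI in NEJ709, and 5.91 to 6.86 CPM in the second. NEJ638, with an interval of 3.79 to 10.4 CPM against 2.76 CPM in low-UMI barcodes, was the 1 library whose interval lay above that level, so no order was read from it.

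Among factors that activate hepatocyte genes, Hnf4a was 94.3 to 141 CPM in NEJ634, NEJ687 and NEJ709 and 163 to 174 CPM in the others, where the interval of NEJ687 met those of NEJ654 and NEJ677. Cebpa was 56.9 to 98.7 CPM against 167 to 271 CPM. Cebpb was 249 to 362 CPM against 133 to 524 CPM and did not separate the libraries. Dbp, a clock-controlled activator of Alb, was 109 CPM in NEJ638, 28.3 CPM in NEJ677 and 3.28 CPM in NEJ654, a span of 33.2 (14.1 to 103) that did not follow Alb.

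Other hepatocyte programs placed the family in context. None of 8 other plasma protein genes spanned 10-fold, and their median span was 4.57, close to the 5.12 of Gc and below the 22.0 of Alb. Of these, Ttr, Rbp4, Apoa1, Ahsg, Ambp and Hpx were also markers that named the class, and the list took part in the clustering. Their spans are therefore not independent of how the class was made. Trf, the iron carrier transferrin, was 2442 to 3480 CPM in NEJ634, NEJ687 and NEJ709 and 10168 to 15835 CPM in the others. Rbp4, the retinol carrier, had the narrowest span of the list, at 2418 to 3838 CPM against 3788 to 4798 CPM. Of 13 adult hepatocyte genes, 10 spanned 10-fold or more, with a median span of 116. Serpina3k was 0 to 5.62 CPM against 3320 to 8358 CPM, and Cyp2e1 was 11.7 to 32.5 CPM against 810 to 2161 CPM. Of 10 oncofetal genes, Igf2 and H19 were the 2 that reached 100 CPM, and both spanned 10-fold or more. Igf2 was 2420 to 2940 CPM against 0.766 to 3.43 CPM, and H19 was 5324 to 9015 CPM against 3.43 to 243 CPM. Spans within the adult list were themselves unequal, at 3.21 for Gnmt, 18.8 for Pck1, 21.1 for Car3 and 185 for Cyp2e1, so that some lay below the span of Alb. The span of Afp was below those of Igf2 (3840) and H19 (2629), with intervals that met. Xist, which marks female cells, was 487 to 1185 CPM in NEJ634, NEJ638 and NEJ654, and no other library exceeded 0.108 CPM, so both sets of libraries held both sexes.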

How the data were processed

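The libraries were made with a 10x 3′ kit from collagenase-dissociated liver or tumor tissue. The values the authors deposited are raw UMI counts for each gene in each barcode, from Cell Ranger, without a cell filter or normalization. The labels and methods name version 6.0, with introns counted, and the file headers name version 4, and this difference could not be resolved. The 4 genes and all gene lists were chosen with earlier results of these data known. The labels gave 0 groups, so there are no tests between groups.

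Barcodes were taken as cells above a cut on total UMIs (99th percentile of the 3000 largest, divided by 10) and, from 500 UMIs, by a Monte Carlo test against the low-UMI profile (10000 draws, adjusted p of 0.01, at most 20000 barcodes per library, a limit reached in NEJ634, NEJ709 and NEJ723). Cells over 500 UMIs with at most 20% mitochondrial UMIs were kept. The highest Scrublet scores were removed at 0.8% per 1000 cells, because the caller's own threshold marked next to none. Of 81433 kept cells, 72584 were analysed. Counts were scaled to 10000, log-transformed and clustered with scanpy 1.11.5 (2000 variable genes, 40 components, 15 neighbours, Leiden resolution 1). The 4 genes and the lists other than plasma proteins, 59 genes in all, took no part in it. Names came from 145 markers that stand for 16 classes. A cluster stayed unnamed if its top 10 genes held more markers of another class than of its best class. So did a cluster with 3 or more markers of another class among its top 10 genes. That limit, the cut for classing by marker share (2 times the share in low-UMI barcodes) and the choice of pools for the Afp order were chosen once the values were known. 17 clusters stayed unnamed.

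Named genes were the members, the 3 most like each, and the genes of highest level in each list; Zhx2, Dlk1 and others below these were named after their values were seen. Cell calling was tested on simulated data of NEJ687 at 1000 UMIs: 86.3% of barcodes drawn from the mean profile of cells and 0% of those from the low-UMI profile were called. From the profile of the largest cluster 78.2% were called. No other library was simulated. The 13 alternatives concern calling, quality limits, doublets, clustering, cell classes, totals, weights, shared barcodes, the low-UMI profile and its subtraction. Start sites and promoters are from RefSeq. A gene of the regulator list and a motif are not reported here.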

Additional observations from a re-analysis of the deposited data

How the results depend on the processing

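Counts of libraries in which a member was raised over low-UMI barcodes, and of libraries with more than 1 Afp UMI per 10 Alb UMIs, were recomputed under 13 alternatives. Of 65 such values, 64 were within 1.5 times the count reported. With low-UMI profiles of barcodes of 10 to 100 UMIs, Afm was raised in 3 libraries in place of 5, and the cause was not tested. No value reversed. With Leiden resolution 2 or with each library clustered on its own, NEJ709 had under 20 hepatocyte-lineage-like cells and dropped out. Classing by marker share took Alb in NEJ709 from 3644 to 2237 CPM and its Afp per 100 Alb UMIs from 43.4 to 71.0, and a mean over cells took Gc there from 971 to 541 CPM. Leaving out shared barcodes took Afp in NEJ709 from 1581 to 1101 CPM. The lowest Afp per 100 Alb UMIs there was 35.5. Afp in NEJ677 ranged from 2.49 CPM, with cells classed by marker share, to 16.4 CPM as a mean over cells, and subtraction of the low-UMI profile took Afp in NEJ638 from 9.19 to 3.83 CPM. Of the single levels, ratios and shares, 118 values moved beyond their counting interval and 296 did not. In cluster 2 of NEJ723, 4 sets in place of 3 along the Afp order gave 5.82 for Alb. Afp in NEJ654 (3 UMIs), Afp in NEJ677 and Afm in NEJ709 (5 UMIs each) are the values most limited by depth. No paired analysis was possible because the labels gave no groups and no result came from a test between samples.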

Other observations

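Genes that take up, recycle or use the cargo of the family were mostly low in hepatocyte-lineage-like cells. Of 10 such genes, B2m and Fcgrt, whose products form the receptor that recycles albumin, were the only ones that reached 100 CPM in any library. Fcgrt was 48.0 CPM in NEJ634, 42.7 CPM in NEJ687 and 37.4 CPM in NEJ709, and 105, 135 and 161 CPM in NEJ638, NEJ654 and NEJ677. B2m was 367, 219 and 304 CPM against 1094, 1248 and 1156 CPM in the same order. In NEJ634 and NEJ687 both were below their level in low-UMI barcodes, which was 57.5 and 55.1 CPM for Fcgrt and 615 and 375 CPM for B2m, so the class did not stand out from that background there. B2m in NEJ709 was also below its low-UMI level of 359.7 CPM. Fcgrt in NEJ654 (117 to 155) held its low-UMI level of 131 CPM within its interval, and in NEJ677 (139 to 186) it was close to the 134 CPM there. Amn, a partner of cubilin in uptake of the vitamin B12 complex, ran the other way, at 49.8, 70.1 and 78.1 CPM against 3.06, 4.6 and 0.857 CPM. Cyp2r1, a vitamin D 25-hydroxylase, was 0.50 CPM in NEJ634, had no UMI in NEJ687 and NEJ709, and was 9.43 to 13.8 CPM in the other libraries. Cyp27b1 and Cyp24a1 had no UMI in this class in any library.

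Albfm1, a further gene of the family that follows Afm on chromosome 5 and was not among the 4 chosen, was 1.63 to 2.06 CPM in NEJ634, NEJ687 and NEJ709 and 21.0 to 33.4 CPM in NEJ638, NEJ654 and NEJ677, an order like that of Afm.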
